A study of Mus musculus with 20 samples.

Results

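The unfolded protein response and the ATF4 programme were followed through 35 genes chosen by symbol for their known roles, all of which were found among the 17787 genes of the deposited table. They comprise transcription factors and regulators of the ATF4 arm, the stress sensors Ern1 and Atf6 with the transcription factor Xbp1, chaperones and folding enzymes of the endoplasmic reticulum (ER), ER degradation factors, and enzymes and transporters of amino acid metabolism. Transcript levels of 34 of the 35 were high enough to test, meaning that 3 or more of the 20 libraries reached 10 normalized counts. Chac1, which encodes an enzyme that degrades glutathione, was not: its highest value was 8.55 normalized counts and it was listed at 0 in 2 libraries.

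Misfolded protein in the ER is sensed by the membrane proteins IRE1 (from Ern1), ATF6 and PERK. IRE1 splices the mRNA of Xbp1 into its active form, cleaved ATF6 enters the nucleus and binds promoters of chaperone genes, and PERK phosphorylates the translation factor eIF2alpha, which slows protein synthesis while allowing ATF4 to be translated. ATF4 is also reached from amino acid shortage and other stresses, and drives genes for amino acid supply, for the factor CHOP (from Ddit3) and for GADD34 (from Ppp1r15a), the phosphatase subunit that reverses eIF2alpha phosphorylation. Transcript levels of these genes do not report splicing, cleavage or translation, none of which were measured.

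The cells were macrophages grown for 7 days from bone marrow of male C57BL/6J wild-type mice in medium with supernatant of L929 cells. They received 50 nM siRNA against Brg1 (the ATPase of BAF chromatin remodelling complexes, encoded by Smarca4) or a control siRNA for 48 h. During the last 6 h they were given vehicle (ethanol and phosphate-buffered saline), 100 ng/ml bacterial lipopolysaccharide (LPS), or LPS with 1 µM Dex (the glucocorticoid dexamethasone). The groups held 3 Brg1 siRNA and 3 control siRNA samples in vehicle, 3 and 3 in LPS, and 4 and 4 in Dex+LPS. Every culture had thus received an siRNA, every non-vehicle group carried LPS, and a single siRNA product stood for each arm. The labels do not say whether replicates are separate mice or cultures, so the p-values speak for the spread among the sequenced samples and for nothing wider.

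Depth was 13.69 to 18.71 M reads per library. Smarca4 had 365, 358 and 340.2 normalized counts with Brg1 siRNA in vehicle, against 1476, 1538 and 1626 with control siRNA, and its log2 fold change was -2.28 in LPS and -2.10 in Dex+LPS. All 10 macrophage markers looked up were present, and their summed level was 405239 to 414864 normalized counts with Brg1 siRNA and 307157 to 318098 with control siRNA in vehicle. The sum does not speak for each marker. By the limma test described below, 4 of the 10 rose and 2 fell with Brg1 siRNA in vehicle, against 9.39% and 10.8% of all genes. Their median log2 fold change there was 0.07. In LPS 6 rose and 1 fell, against 17.3% and 15.8%, and in Dex+LPS 6 rose and 2 fell, against 19% and 15.3%. The 4 B cell markers in the table summed to 53.2 to 70.8 with Brg1 siRNA and 629.8 to 703 with control siRNA in vehicle, with Cd79a at 0 in all 6 libraries. The 3 plasma cell markers in the table summed to 422 to 473 with Brg1 siRNA against 675 to 739.9 with control siRNA in vehicle, with Jchain at 0 in all 6. T and NK cell markers summed to at most 2.27 in any library, and fibroblast markers to at most 2.62 in vehicle and 1051 elsewhere, with Dcn at 0 in vehicle and LPS. Neutrophil markers summed to at most 571 with Brg1 siRNA and 492 with control siRNA. In such bulk samples, fewer cells of a type and less RNA per cell cannot be told apart.

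Several of the ER folding genes share a promoter element known to bind ATF6. The ATF6 element, searched as CCAAT followed by 9 bases of any kind and CCACG on either strand, occurred in 39 of 32851 RefSeq mouse promoters (0.119%), each taken from 250 bases before to 50 bases after a gene's start. It occurred in 7 of the 33 promoters available for 31 members, namely those of Hspa5, Hsp90b1, Calr, Canx, Pdia6, Dnajc3 and Creld2, all genes of ER folding. The CCAAT of each element is itself a CCAAT box, which 72.7% of member promoters and 37.4% of all promoters held. The core ACGTG, bound by XBP1 and ATF6 and overlapping the element where a T follows its CCACG, was found in 39.4% of member promoters and 19.6% of all. The CEBP-ATF composite core, TGATG followed by any base and AA, the kind of site ATF4 binds with C/EBP partners, was found in 12.1% of member promoters, those of Trib3, Chac1, Asns and Herpud1, and in 3.97% of all. A match is a run of letters and not a measured binding site. Members were chosen for known roles in this response, so their higher shares are no independent finding and were not tested.

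The upstream 250 bases of 6 promoters with the ATF6 element are shown with the CCAAT and CCACG of the element in capitals. They were picked because most of these genes were among those lower with Brg1 siRNA. Pdia6, the remaining carrier, is not shown and was called in no knockdown comparison, nor was Canx, which is shown. In LPS Hsp90b1 was the only carrier that fell. Whether the element and the falls are linked was not tested. The Asns promoter is added for its composite core, also in capitals. Sequences are from RefSeq on GRCm38.p6, written 5′ to 3′ on the strand of the gene.
Hspa5, chr2:34771840-34772089, plus strand: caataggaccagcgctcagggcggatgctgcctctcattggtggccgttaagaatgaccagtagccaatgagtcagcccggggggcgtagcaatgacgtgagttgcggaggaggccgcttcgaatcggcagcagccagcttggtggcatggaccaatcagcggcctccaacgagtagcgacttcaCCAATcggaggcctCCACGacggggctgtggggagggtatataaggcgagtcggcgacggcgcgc
Hsp90b1, chr10:86705445-86705694, minus strand: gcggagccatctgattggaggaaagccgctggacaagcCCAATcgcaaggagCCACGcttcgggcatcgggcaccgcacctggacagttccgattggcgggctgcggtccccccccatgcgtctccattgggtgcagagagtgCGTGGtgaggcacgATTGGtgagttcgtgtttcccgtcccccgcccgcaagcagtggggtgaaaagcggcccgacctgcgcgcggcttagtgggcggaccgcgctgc
Calr, chr8:84846932-84847181, minus strand: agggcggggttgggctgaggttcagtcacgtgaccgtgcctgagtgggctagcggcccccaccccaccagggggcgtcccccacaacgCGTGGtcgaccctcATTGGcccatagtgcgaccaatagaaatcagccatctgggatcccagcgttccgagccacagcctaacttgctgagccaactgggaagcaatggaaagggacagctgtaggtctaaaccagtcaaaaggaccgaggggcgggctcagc
Canx, chr11:50325674-50325923, minus strand: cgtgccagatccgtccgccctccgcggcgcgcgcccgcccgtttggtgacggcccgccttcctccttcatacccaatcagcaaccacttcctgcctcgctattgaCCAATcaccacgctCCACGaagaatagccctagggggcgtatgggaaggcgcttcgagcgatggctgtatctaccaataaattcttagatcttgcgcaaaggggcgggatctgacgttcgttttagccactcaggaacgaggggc
Dnajc3, chr14:118937682-118937931, plus strand: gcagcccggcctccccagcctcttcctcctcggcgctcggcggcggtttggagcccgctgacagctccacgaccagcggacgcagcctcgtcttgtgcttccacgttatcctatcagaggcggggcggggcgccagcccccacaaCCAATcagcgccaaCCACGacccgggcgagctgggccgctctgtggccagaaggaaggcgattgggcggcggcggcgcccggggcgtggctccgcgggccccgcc
Creld2, chr15:88819396-88819645, plus strand: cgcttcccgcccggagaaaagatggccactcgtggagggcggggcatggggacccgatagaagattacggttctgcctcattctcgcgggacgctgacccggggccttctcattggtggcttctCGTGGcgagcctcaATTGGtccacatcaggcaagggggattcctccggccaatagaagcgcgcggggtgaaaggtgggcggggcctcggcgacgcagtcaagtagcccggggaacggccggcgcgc
Asns, chr6:7693210-7693459, minus strand: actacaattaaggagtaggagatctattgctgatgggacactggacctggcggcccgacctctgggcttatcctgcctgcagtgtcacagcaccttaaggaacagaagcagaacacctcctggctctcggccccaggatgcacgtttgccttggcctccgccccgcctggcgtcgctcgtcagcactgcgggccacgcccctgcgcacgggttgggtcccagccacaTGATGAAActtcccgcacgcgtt
The first base of the element lay 65 bases before the gene start in Hspa5, 162 in Calr, 145 in Canx, 105 in Dnajc3 and 126 in Creld2. Hsp90b1 held a pair, at 212 and 107 bases, on opposite strands.

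With Brg1 silenced, some members rose and others fell. In all 3 treatments the regulators Atf5, Ddit3 and Ppp1r15a, the sensor Ern1, the transporter subunit Slc3a2 and the degradation factor Edem1 rose with Brg1 siRNA, whereas the folding genes Hsp90b1, Pdia4 and Hyou1 and the serine synthesis enzyme Psat1 fell. The calls of Ern1 in vehicle and LPS and of Hsp90b1 in LPS were lost in several alternatives, given below. The shares of all genes that rose or fell in all 3 treatments were not counted. In vehicle, 6 of the 34 tested members rose and 8 fell, against 9.39% and 10.8% of all 12061 genes tested. In LPS 7 rose and 7 fell, against 17.3% and 15.8% of all genes. In Dex+LPS 8 rose and 14 fell, against 19% and 15.3% of all genes. Both counts in LPS and the rises in Dex+LPS thus lay near the shares of all genes. Calls are from limma on log2(normalized count + 1) at a Benjamini-Hochberg adjusted p under 0.05, and all fold changes below are on that scale, which understates the change of genes with few reads. The 3 comparisons share no samples.

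The median log2 fold change of the 34 members was -0.07 in vehicle, -0.05 in LPS and -0.19 in Dex+LPS, with a median of 0.01 over all genes in each. No member was called in opposite directions in different treatments, and 24 were called in at least 1 treatment. The 10 called in none were Psph, Shmt2, Mthfd2, Atf6, Canx, Pdia3, Pdia6, Dnajb9, Herpud1 and Sel1l. The shares of all genes called in at least 1 treatment, in none or in opposite directions were not counted. Whether the members stand out in these counts was thus not tested. Alternative settings called some members that are not called here, 5 in vehicle, 10 in LPS and 5 in Dex+LPS, and 5 of the 10 uncalled members (Canx, Herpud1, Mthfd2, Pdia3 and Shmt2) were among them. Scaling by library totals in place of the deposited size factors put the median of all genes at -0.12 in LPS, and there 5 members were then called higher and 14 lower. All genes split into 1334 higher and 2919 lower on that scale in LPS, against 2089 and 1906, and into 1653 and 2847 in Dex+LPS, against 2289 and 1842. Description numbers of the libraries form 2 series, and 1 library in each LPS and Dex+LPS group carries a number of the smaller series, MUC18. Without those 4 libraries 5 members rose and 10 fell in vehicle, 7 rose and 7 fell in LPS, and 8 rose and 13 fell in Dex+LPS. Of the 11966 genes then tested, 1281 were higher and 1518 lower in vehicle, 1779 and 1614 in LPS, and 2176 and 1787 in Dex+LPS. No member changed the sign of its knockdown effect with library totals where either fit called it.

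**Figure D1:**
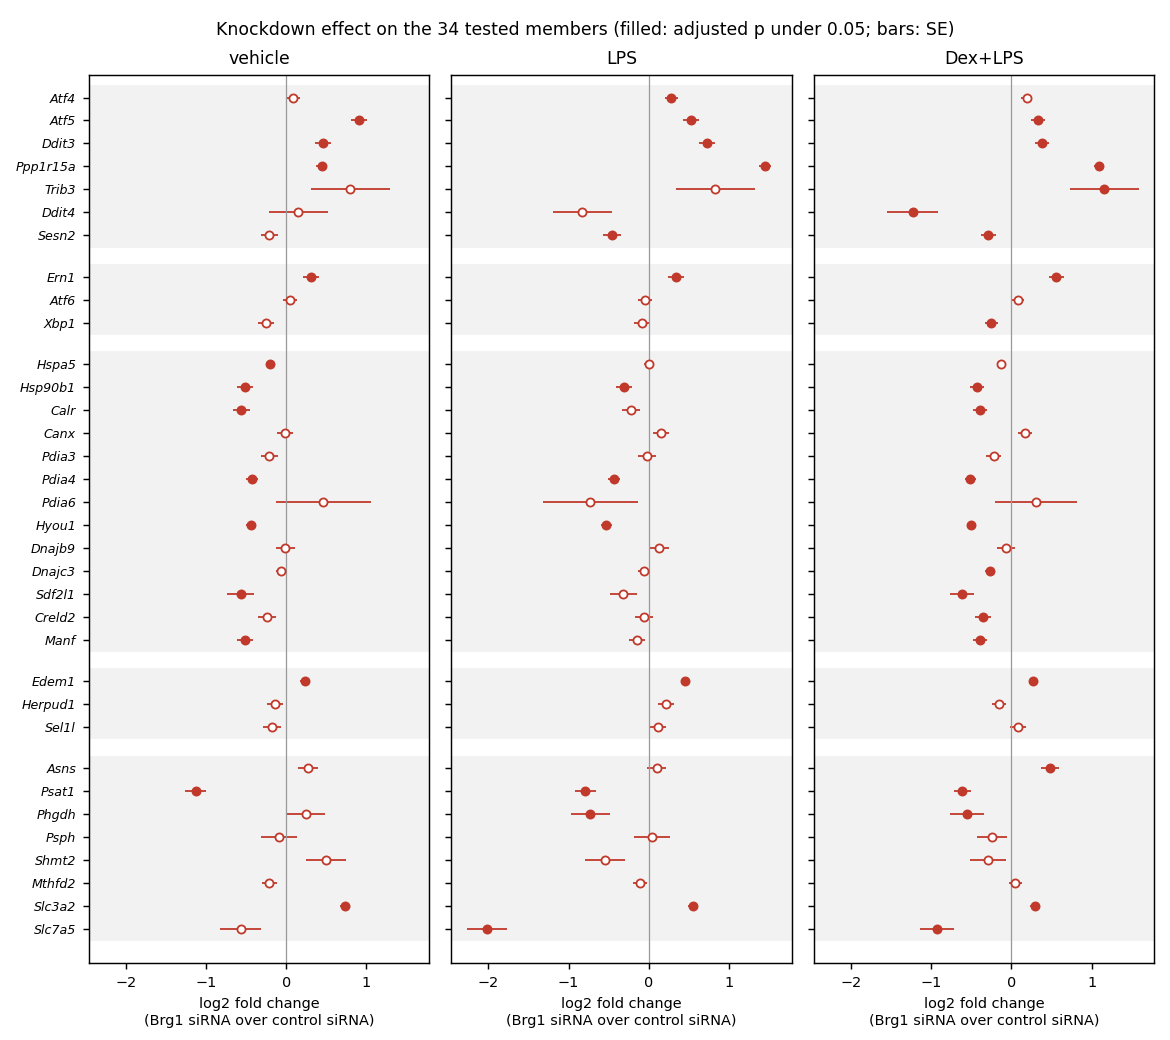
Log2 fold change (Brg1 siRNA over control siRNA, x axis) of the 34 tested members (rows, in bands of regulators, sensors with Xbp1, folding genes, degradation genes and amino acid genes) in vehicle, LPS and Dex+LPS; bars are standard errors and filled points passed limma at an adjusted p under 0.05. Filled points of the folding band all lie left of 0, while Atf5, Ddit3, Ppp1r15a, Ern1, Edem1 and Slc3a2 lie right of 0 in every panel.

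Among the 7 tested regulators of the ATF4 arm, 3 rose in vehicle and none fell, 4 rose and 1 fell in LPS, and 4 rose and 2 fell in Dex+LPS. Of all genes tested, 9.39% rose and 10.8% fell in vehicle, 17.3% and 15.8% in LPS, and 19% and 15.3% in Dex+LPS. Ppp1r15a (chr7:45522916-45526268 on the minus strand of GRCm38), which encodes GADD34, had 18152, 18265 and 17572 normalized counts with Brg1 siRNA in LPS, against 6472, 6528 and 6711 with control siRNA. The lowest Brg1 siRNA library thus lay far above the highest control library, with a ratio of means of 2.74 (log2 fold change 1.45 ± 0.071 SE, limma adjusted p = 1.09e-10). In Dex+LPS the values were 8093, 8880.1, 9040.1 and 9259.6 with Brg1 siRNA, against 4041, 4622, 3788 and 4160.2 with control siRNA (1.09 ± 0.061, adjusted p = 3.74e-10). In vehicle the gene was low in both arms, at 358, 381 and 362 with Brg1 siRNA against 265, 252 and 295 with control siRNA, and the groups again did not overlap (0.44 ± 0.071, adjusted p = 0.000182).

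Ddit3, which encodes the stress factor CHOP, was higher with Brg1 siRNA in every treatment. Its values were 675, 619 and 680.4 with Brg1 siRNA and 548, 461 and 435 with control siRNA in vehicle (0.46 ± 0.10, limma adjusted p = 0.00312). In LPS they were 414, 435 and 409 with Brg1 siRNA and 266, 226 and 266 with control siRNA (0.73 ± 0.10, adjusted p = 2.15e-05). Neither pair of groups overlapped, nor did those in Dex+LPS, at 287, 312, 289 and 352 with Brg1 siRNA and 225, 259, 227 and 243 with control siRNA (0.38 ± 0.088, adjusted p = 0.00267). Ddit3 was highest in vehicle in both arms, where Ppp1r15a was lowest.

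Atf5, a transcription factor of the ATF4 family that CHOP and ATF4 can induce, had the highest rise of all members in vehicle. Its values were 331, 319.8 and 369 with Brg1 siRNA, against 187, 167 and 185 with control siRNA (0.91 ± 0.10, limma adjusted p = 3.93e-06). In LPS the libraries again separated, with 526, 526 and 607 for Brg1 siRNA and 357, 386 and 403 for control siRNA (0.53 ± 0.10, adjusted p = 0.000622). In Dex+LPS the values were 543, 515, 546 and 463 with Brg1 siRNA and 423, 476, 376 and 369 with control siRNA, where the lowest Brg1 siRNA library lay under the highest control library (0.33 ± 0.089, adjusted p = 0.00703).

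**Figure D2:**
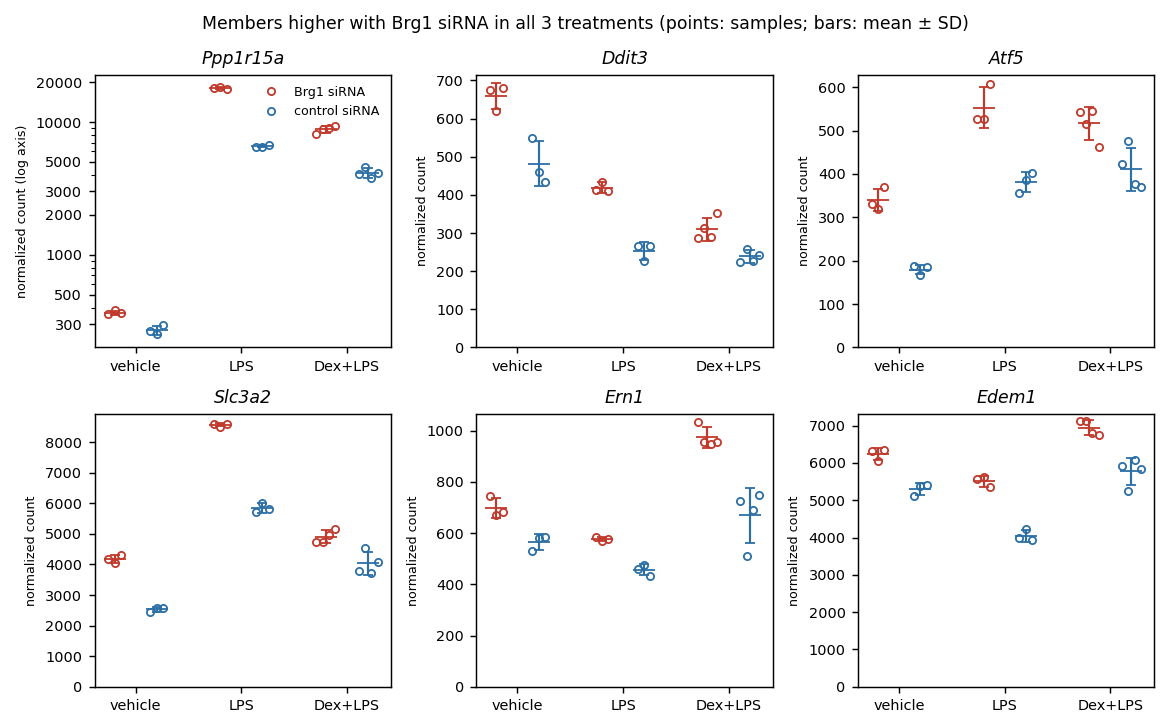
Normalized counts (y axis, log scale for Ppp1r15a only) of the 6 members that rose with Brg1 siRNA in all 3 treatments (x axis), with Brg1 siRNA (red) left of control siRNA (blue); each point is a sample and the bars are mean ± SD of 3 or 4 samples. Brg1 siRNA samples lie above control samples in every panel and treatment except for Atf5 in Dex+LPS, where 463 with Brg1 siRNA lies under 476 with control siRNA.

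Atf4 itself had 3258, 3008 and 3556 normalized counts with Brg1 siRNA in LPS, against 2623, 2859 and 2602 with control siRNA, and rose by 0.28 ± 0.084 (limma adjusted p = 0.0165). The call was lost with library totals (adjusted p = 0.163), without Brg1 siRNA replicate 3 (0.088), without control replicate 1 (0.0564) and without control replicate 3 (0.0595). The groups overlapped in vehicle, at 1557, 1559 and 1499.8 with Brg1 siRNA and 1586, 1329 and 1444 with control siRNA (0.09 ± 0.084, adjusted p = 0.557). They also overlapped in Dex+LPS, at 3100.0, 3158, 3101 and 2890.2 with Brg1 siRNA and 2563, 3081, 2712 and 2400.3 with control siRNA (0.19 ± 0.073, adjusted p = 0.05), but that difference was called higher in 6 of 19 alternatives (adjusted p = 0.00573 to 0.049).

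Trib3, which encodes a pseudokinase that restrains ATF4 and CHOP, was scarce. In Dex+LPS it had 12.6, 7.8, 5.34 and 16.6 normalized counts with Brg1 siRNA and 5.44, 3.21, 3.05 and 3.83 with control siRNA, with 1 Brg1 siRNA library inside the control range (1.16 ± 0.43, limma adjusted p = 0.0424). That call was lost without replicate 1, 2 or 4 of Brg1 siRNA in Dex+LPS (adjusted p = 0.102, 0.0525 and 0.125), without replicate 2, 3 or 4 of control siRNA (0.0851, 0.0886 and 0.069), without the 4 MUC18 libraries (0.105), with library totals (0.0507) and with no filter (0.0639). Ddit4, an inhibitor of the growth kinase mTORC1, was also scarce and went the other way. It had 21.7, 17.8, 10.7 and 12 with Brg1 siRNA in Dex+LPS, all below the control siRNA values of 30.8, 47, 41.7 and 29.1 (-1.23 ± 0.32, adjusted p = 0.00606).

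Sesn2, a stress-induced inhibitor of mTORC1, fell in LPS and Dex+LPS. It had 86, 98.4 and 81.8 normalized counts with Brg1 siRNA in LPS, all below the 125, 109.9 and 132 of control siRNA (-0.46 ± 0.11, limma adjusted p = 0.00313). Its Dex+LPS mean was 116 ± 3.32 with Brg1 siRNA and 143 ± 14.6 with control siRNA (SD, n = 4 each; -0.29 ± 0.093 SE, adjusted p = 0.0243). The Dex+LPS call was lost without Brg1 siRNA replicate 2 or 3 (adjusted p = 0.0523 and 0.0569), without control replicate 3 or 4 (0.0603 and 0.0798), without the 4 MUC18 libraries (0.0624) and with only the compared groups in the fit (0.0777).

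The sensor gene Ern1 rose in each treatment, while Atf6 was called in none. Ern1 had 1036, 958, 950.0 and 955 normalized counts with Brg1 siRNA in Dex+LPS, all above the 726, 512, 692 and 749 of control siRNA (0.56 ± 0.091, limma adjusted p = 0.00011). In LPS it had 586, 569 and 579 with Brg1 siRNA and 461, 475 and 433 with control siRNA (0.34 ± 0.10, adjusted p = 0.0181). In vehicle it had 744, 672 and 681 with Brg1 siRNA and 529, 581 and 585 with control siRNA (0.31 ± 0.10, adjusted p = 0.0471). The groups overlapped in no treatment, but the vehicle call was lost when any 1 of its 6 libraries was left out (adjusted p = 0.0716 to 0.17), with library totals (0.0927), with no filter (0.0615) and without the MUC18 libraries (0.0518). The LPS call was lost without Brg1 siRNA replicate 1 (0.051), without control replicate 3 (0.068), without the MUC18 libraries (0.0884) and with library totals (0.161).

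Atf6 values overlapped between arms in every treatment. In vehicle they were 3219, 3138 and 3155 with Brg1 siRNA and 2816, 3234 and 3167 with control siRNA (0.05 ± 0.087, limma adjusted p = 0.78). In LPS they were 1353, 1393 and 1412 with Brg1 siRNA and 1421, 1485 and 1400.1 with control siRNA (-0.05 ± 0.087, adjusted p = 0.702). In Dex+LPS, Brg1 siRNA gave 1750.2, 1796, 1742 and 1723 and control siRNA 1693, 1349.8, 1890.4 and 1758 (0.08 ± 0.075, adjusted p = 0.458).

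Xbp1, counted without regard to its splicing, had 2252, 2284, 2165 and 1906 normalized counts with Brg1 siRNA in Dex+LPS and 2476, 2938, 2605 and 2241 with control siRNA, and it fell although the ranges overlapped (-0.25 ± 0.082, limma adjusted p = 0.0254). The call was lost without Brg1 siRNA replicate 4 (adjusted p = 0.0851), without control replicate 2 (0.0876) or 3 (0.0529), and with only the compared groups in the fit (0.0845). In vehicle all Brg1 siRNA values, 1955, 1960.3 and 1979, lay below the control siRNA values of 2551, 2276 and 2196, without passing the test (-0.25 ± 0.10, adjusted p = 0.0753), though it was called lower in 6 of 17 alternatives (adjusted p = 0.00765 to 0.0473), the replicate block among them (0.0377). In LPS the values were 2151, 1862 and 2241 with Brg1 siRNA and 2178, 2367 and 2085 with control siRNA (-0.09 ± 0.10, adjusted p = 0.526).

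Every call among the ER folding genes was a fall. Of 13 tested, 7 fell in vehicle, 3 in LPS and 8 in Dex+LPS, against 10.8%, 15.8% and 15.3% of all genes tested. The count in LPS lay near the share of all genes. None of the 13 rose in any treatment, against 9.39%, 17.3% and 19% of all genes, although alternatives called Canx higher, as given below. Their median log2 fold change was -0.24 in vehicle, -0.15 in LPS and -0.35 in Dex+LPS. The largest of the called log2 fold changes was -0.61, of Sdf2l1 in Dex+LPS. The summed plasma cell markers were lower too, at 2191 to 2692 with Brg1 siRNA and 3813 to 4389 with control siRNA in LPS. In Dex+LPS they were at 613 to 764 with Brg1 siRNA and 1157 to 1341 with control siRNA. With control siRNA the sum was 675 to 739.9 in vehicle, so it also moved with treatment. Jchain and Tnfrsf17 were at 0 in every Brg1 siRNA library of LPS and Dex+LPS, so there the sums were of Sdc1 alone. Sdc1 was the 1 plasma cell marker that could be tested, and it fell in each treatment, as did 1 of 2 tested B cell markers. Their part in the result was not tested.

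Hyou1, an ER chaperone of the HSP110 family, separated the arms in every treatment. It had 1835, 1839 and 1609 normalized counts with Brg1 siRNA in LPS, against 2561, 2453 and 2599 with control siRNA (-0.53 ± 0.068, limma adjusted p = 9.56e-06). In vehicle it had 1255, 1302 and 1343 with Brg1 siRNA and 1661, 1729 and 1895 with control siRNA (-0.44 ± 0.068, adjusted p = 0.000126). In Dex+LPS it averaged 2162 ± 102 with Brg1 siRNA and 3049.9 ± 179.6 with control siRNA (SD, n = 4 each; -0.50 ± 0.059 SE, adjusted p = 3.19e-06).

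Pdia4, a disulfide isomerase, likewise showed no overlap between arms. Its values were 762, 688, 649.7 and 691 normalized counts with Brg1 siRNA in Dex+LPS and 933, 1061, 1015 and 958 with control siRNA (-0.51 ± 0.063, limma adjusted p = 5.7e-06). In LPS they were 505, 435 and 455 with Brg1 siRNA and 657, 620.1 and 599 with control siRNA (-0.43 ± 0.073, adjusted p = 0.000187). In vehicle the log2 fold change was -0.43 ± 0.073 (adjusted p = 0.000287). The related isomerase gene Pdia3 was not called, at -0.21, -0.02 and -0.22 in vehicle, LPS and Dex+LPS. In vehicle it was called lower in 4 of 17 alternatives (adjusted p = 0.0175 to 0.038) and in Dex+LPS lower in 9 of 19 alternatives (adjusted p = 0.00482 to 0.0499), in both with the replicate block (0.038 and 0.00917).

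Hsp90b1 encodes GRP94, the ER member of the HSP90 family, and carries the pair of ATF6 elements shown above. In vehicle it had 7099.8, 6759 and 7213 normalized counts with Brg1 siRNA, all below the 10378, 9936 and 9863 of control siRNA (-0.52 ± 0.10, limma adjusted p = 0.00138). It fell by 0.43 ± 0.090 in Dex+LPS (adjusted p = 0.00119). In LPS it had 11768, 9296 and 10814 with Brg1 siRNA and 13249, 14045 and 12134 with control siRNA, again without overlap (-0.31 ± 0.10, adjusted p = 0.028). The LPS call was lost without Brg1 siRNA replicate 2 (adjusted p = 0.143) or 3 (0.0508) and without control replicate 1 (0.0708) or 2 (0.105).

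Calr encodes the lectin chaperone calreticulin. In vehicle it had 8906, 8235 and 8671 normalized counts with Brg1 siRNA, all below the 13173, 12349 and 12525 of control siRNA (-0.56 ± 0.11, limma adjusted p = 0.00087). In Dex+LPS its arms also separated (-0.39 ± 0.092, adjusted p = 0.00279), while in LPS its fold change was -0.22 ± 0.11 (adjusted p = 0.131) and was called lower in 3 of 17 alternatives (adjusted p = 0.00754 to 0.0467). Canx, which encodes the membrane-bound lectin chaperone calnexin and also carries an ATF6 element, was not called, with log2 fold changes of -0.01, 0.15 and 0.17 in vehicle, LPS and Dex+LPS. It was called higher in 2 of 17 alternatives (adjusted p = 0.0202 to 0.0215) in LPS and higher in 4 of 19 alternatives (adjusted p = 0.00328 to 0.0492) in Dex+LPS. In Dex+LPS these were the replicate block (0.0492), a term for the number series (0.00328), leaving out the MUC18 libraries (0.0123) and leaving out Brg1 siRNA replicate 4 (0.031).

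Hspa5 encodes BiP, the central ER chaperone. It fell in vehicle, with 11093, 10643 and 11017 normalized counts with Brg1 siRNA, all below the 12999, 11995 and 12752 of control siRNA (-0.20 ± 0.058, limma adjusted p = 0.0165). The call was lost without Brg1 siRNA replicate 2 (adjusted p = 0.0703), without control replicate 1 (0.0733) and without control replicate 3 (0.056). In LPS the arms overlapped, at 24751, 23527 and 23305 with Brg1 siRNA and 23321, 23905 and 24591 with control siRNA (-0.00 ± 0.058, adjusted p = 0.962). In Dex+LPS they overlapped as well, at 21995, 20627, 19803 and 21239 with Brg1 siRNA and 21773, 25269, 22423 and 21990.1 with control siRNA (-0.13 ± 0.050, adjusted p = 0.058), a difference called lower in 8 of 19 alternatives (adjusted p = 0.000852 to 0.0473). Whether the knockdown effect on Hspa5 differed between vehicle and LPS was tested as an interaction and was not called (0.20 ± 0.081, adjusted p = 0.135), except with only the compared groups (0.0431).

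Manf, a secreted ER stress protein, and Sdf2l1, a partner of the BiP chaperone cycle, fell in vehicle and Dex+LPS. Manf had 638, 614 and 611 normalized counts with Brg1 siRNA in vehicle, all below the 929, 809 and 914 of control siRNA (-0.51 ± 0.10, limma adjusted p = 0.000864). In Dex+LPS Manf averaged 1252 ± 34.3 with Brg1 siRNA and 1657 ± 259 with control siRNA (SD, n = 4 each; -0.39 ± 0.083 SE, adjusted p = 0.00127). Sdf2l1 had 382, 382, 326 and 469 with Brg1 siRNA in Dex+LPS and 491, 747, 524 and 639.7 with control siRNA, also without overlap (-0.61 ± 0.15, adjusted p = 0.00347). In vehicle Sdf2l1 had 399, 386 and 448 with Brg1 siRNA and 672, 603 and 562 with control siRNA (-0.57 ± 0.17, adjusted p = 0.0233). That call was lost without Brg1 siRNA replicate 1 (0.0703) or 2 (0.0819) and without control replicate 1 (0.0946) or 2 (0.0562).

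Dnajc3, which encodes the BiP cofactor p58IPK and an inhibitor of PERK, and Creld2, an ER stress-inducible isomerase-like gene, both hold an ATF6 element and fell in Dex+LPS. Dnajc3 averaged 2083 ± 116 normalized counts with Brg1 siRNA and 2505 ± 171 with control siRNA in Dex+LPS (SD, n = 4 each; -0.27 ± 0.061 SE, limma adjusted p = 0.0025). Creld2 averaged 405 ± 15.6 with Brg1 siRNA and 520.1 ± 64.3 with control siRNA (-0.35 ± 0.10 SE, adjusted p = 0.0076). Elsewhere neither was called, apart from Dnajc3 in LPS with library totals (0.0188) and Creld2 in vehicle without control replicate 2 (0.04). Of the 7 members with an ATF6 element, Hspa5, Hsp90b1 and Calr fell in vehicle, Hsp90b1 in LPS, and Hsp90b1, Calr, Dnajc3 and Creld2 in Dex+LPS, while Canx and Pdia6 were not called, Canx with the exceptions given. Folding genes without the element in the window, such as Pdia4 and Sdf2l1, fell too. Pdia6, a further isomerase, spread so widely within groups, between 71.6 and 415 with Brg1 siRNA in Dex+LPS, that no knockdown effect was detectable (SE 0.51). Transcripts of Hsp90b1 and Manf share 8.43% and 7.25% of their 31-base words with genes of the opposite strand, and those of Dnajb9 share 10.8% with other genes of the same strand, so their counts could hold reads of a neighbour or copy.

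**Figure D3:**
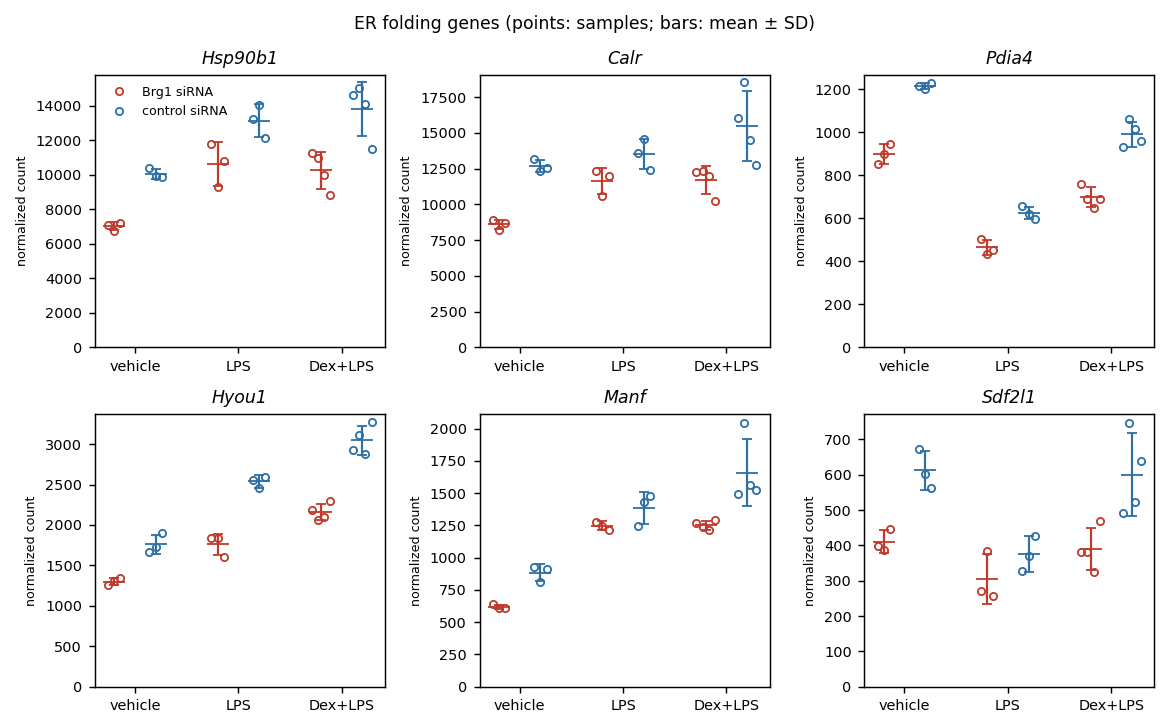
Normalized counts (y axes start at 0) of 6 ER folding genes in vehicle, LPS and Dex+LPS (x axis), with Brg1 siRNA (red) left of control siRNA (blue); each point is a sample and the bars are mean ± SD of 3 or 4 samples. The 6 are the folding genes called lower in both vehicle and Dex+LPS. Their separation there thus goes with how they were picked. In vehicle and Dex+LPS every Brg1 siRNA sample lies below every control sample for all 6 genes, and in LPS Calr, Manf and Sdf2l1 did not pass the test. Folding genes called in no treatment (Canx, Pdia3, Pdia6 and Dnajb9) are not drawn.

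Of the 3 genes of ER-associated degradation, Edem1, a lectin-like protein that directs misfolded glycoproteins to degradation, rose in every treatment and the other two were not called. Edem1 had 5563, 5624 and 5349 normalized counts with Brg1 siRNA in LPS, all above the 3994, 4229 and 3925 of control siRNA (0.45 ± 0.053, limma adjusted p = 4.67e-06). In vehicle it had 6309, 6045 and 6357 with Brg1 siRNA and 5125, 5370.4 and 5406 with control siRNA, again without overlap (0.23 ± 0.053, adjusted p = 0.00387). Edem1 averaged 6949.9 ± 205 in Dex+LPS with Brg1 siRNA and 5776 ± 359 with control siRNA (SD, n = 4 each; 0.27 ± 0.046 SE, adjusted p = 0.000188). Herpud1, a membrane component of the degradation complex, had log2 fold changes of -0.14, 0.21 and -0.16 in vehicle, LPS and Dex+LPS, and was called higher in 1 of 17 alternatives (adjusted p = 0.042) in LPS and lower in 1 of 19 alternatives (adjusted p = 0.0212) in Dex+LPS. Sel1l, the adaptor of the HRD1 ubiquitin ligase, had -0.18, 0.11 and 0.08, likewise not called.

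The subunits of the leucine transporter moved in opposite directions in LPS and Dex+LPS. Slc3a2, the heavy chain of the leucine transporter and of the cystine transporter, had 8584, 8511 and 8607 normalized counts with Brg1 siRNA in LPS, all above the 5703, 6015 and 5814 of control siRNA (0.55 ± 0.062, limma adjusted p = 2.28e-06). It rose in vehicle, with 4191, 4053 and 4314 with Brg1 siRNA and 2432, 2575 and 2581 with control siRNA (0.73 ± 0.062, adjusted p = 1.63e-07). Its rise in Dex+LPS was 0.29 ± 0.054 (adjusted p = 0.000458).

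Slc7a5 (chr8:121881150-121907694, minus strand), the LAT1 light chain that pairs with Slc3a2 to import leucine, fell in LPS and Dex+LPS. In LPS it had 47.4, 31.2 and 37.5 normalized counts with Brg1 siRNA, against 166, 146 and 162 with control siRNA. The control libraries lay at several times the level of every Brg1 siRNA library, with a Brg1 over control ratio of means of 0.245, the largest fall of any member in any treatment (-2.02 ± 0.25, limma adjusted p = 5.45e-06). Values in Dex+LPS were 30.9, 26.8, 38.5 and 28.6 with Brg1 siRNA and 50.7, 47, 78.3 and 68.1 with control siRNA, without overlap (-0.93 ± 0.21, adjusted p = 0.00231). In vehicle the arms overlapped, at 32.7, 16.4 and 22.2 with Brg1 siRNA and 39.3, 35.6 and 28.8 with control siRNA (-0.57 ± 0.25, adjusted p = 0.123); without Brg1 siRNA replicate 1 that difference was called (0.0334).

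Of the 6 enzymes of serine, one-carbon and asparagine metabolism, 1 fell in vehicle, 2 in LPS and 2 in Dex+LPS, where 1 rose. The shares of all genes that fell were 10.8%, 15.8% and 15.3%, and 19% rose in Dex+LPS. Psat1, the aminotransferase of serine synthesis, had 74.9, 92.3 and 69.9 normalized counts with Brg1 siRNA in vehicle, against 185, 191 and 147 with control siRNA (-1.13 ± 0.13, limma adjusted p = 3.99e-06). It had 224, 228 and 268 with Brg1 siRNA in LPS and 396, 430.4 and 421 with control siRNA (-0.79 ± 0.13, adjusted p = 0.000103). In Dex+LPS it had 246, 191, 218 and 250.2 with Brg1 siRNA and 341, 328, 352 and 359 with control siRNA (-0.61 ± 0.11, adjusted p = 0.000277). Every Brg1 siRNA library lay below every control library of its treatment.

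Phgdh, the first enzyme of serine synthesis, fell in LPS and Dex+LPS. It had 121, 129.6 and 93.2 normalized counts with Brg1 siRNA in LPS and 224, 175 and 171 with control siRNA (-0.73 ± 0.24, limma adjusted p = 0.0248). In vehicle it was low in both arms, at 24.7, 33.6 and 40.1 with Brg1 siRNA and 20.1, 40.6 and 24.5 with control siRNA. In Dex+LPS it had 347, 305, 502 and 470.0 with Brg1 siRNA and 570.0, 644, 549 and 570.0 with control siRNA (-0.55 ± 0.21, adjusted p = 0.0474). The arms did not overlap in either, but the LPS call was lost without Brg1 siRNA replicate 3 (0.109) or control replicate 1 (0.105). The Dex+LPS call was lost without Brg1 siRNA replicate 1 or 2 (0.12 and 0.153), without any 1 of the 4 control libraries (0.063 to 0.105), without the MUC18 libraries (0.0709), with no filter (0.0655) and with the replicate number as a block (0.0587). Phgdh counts are also uncertain because 55.8% of the 31-base words of its transcripts occur in transcripts of other genes.

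Asns, which makes asparagine and carries the composite core shown above, rose in Dex+LPS, with 313, 317, 326 and 269.6 normalized counts with Brg1 siRNA, all above the 237, 219, 229 and 194 of control siRNA (0.48 ± 0.11, limma adjusted p = 0.00178). It was not called in vehicle (0.27 ± 0.12, adjusted p = 0.138) or LPS (0.10 ± 0.12, adjusted p = 0.554). Psph, the last enzyme of serine synthesis, and the mitochondrial folate enzymes Shmt2 and Mthfd2 were not called for the knockdown, with fold changes between -0.55 and 0.50, both of these of Shmt2. Alternatives called Shmt2 higher in 1 of 17 alternatives (adjusted p = 0.0447) in vehicle, Shmt2 lower in 2 of 17 alternatives (adjusted p = 0.0189 to 0.0459) in LPS and Mthfd2 lower in 1 of 17 alternatives (adjusted p = 0.041) in LPS.

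**Figure D4:**
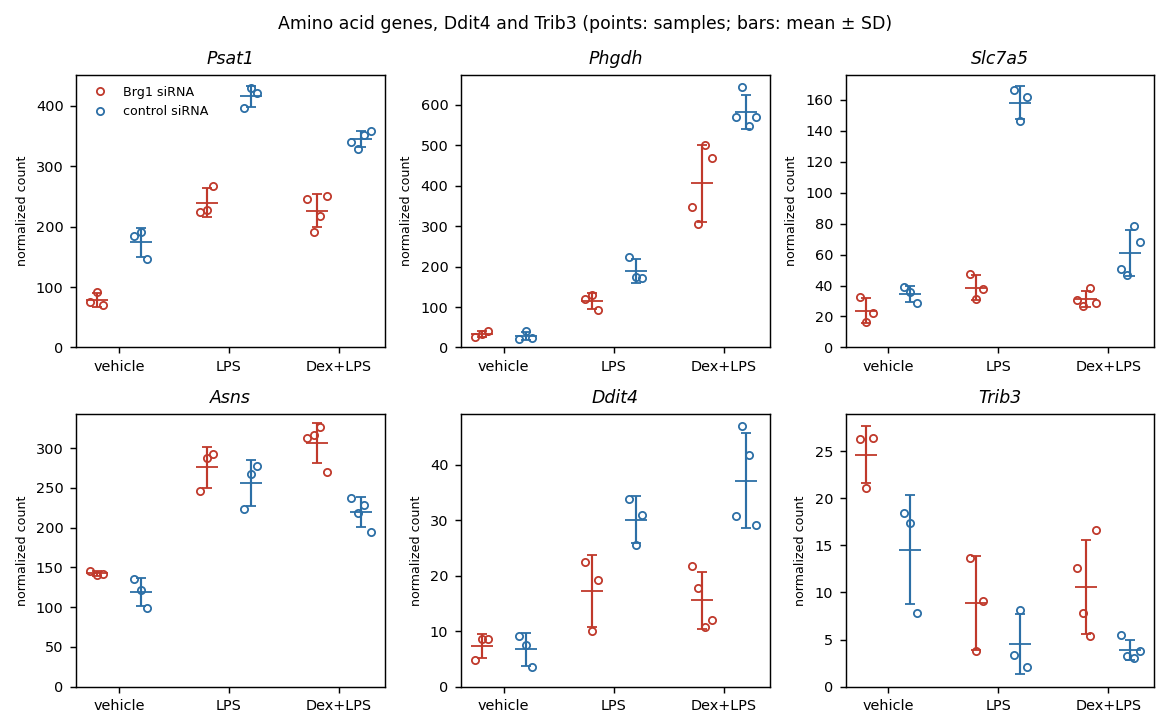
Normalized counts (y axes start at 0) of Psat1, Phgdh, Slc7a5, Asns, Ddit4 and Trib3 in vehicle, LPS and Dex+LPS (x axis), with Brg1 siRNA (red) left of control siRNA (blue); each point is a sample and the bars are mean ± SD of 3 or 4 samples. Slc7a5 in LPS is at 31.2 to 47.4 with Brg1 siRNA and 146 to 166 with control siRNA, while its vehicle samples overlap.

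LPS itself moved most members in both arms. With Brg1 siRNA, 19 members rose and 10 fell, against 35.4% and 37.4% of all genes tested, and with control siRNA 18 rose and 9 fell, against 36% and 37% of all genes. The members' median log2 fold change was 0.51 with Brg1 siRNA and 0.46 with control siRNA, where the median of all genes was -0.05 and -0.04. These directions depend on scaling more than the knockdown effects do. Scaled by library totals the median of all genes was -0.72 with Brg1 siRNA and -0.61 with control siRNA, and 10 members were called higher and 17 lower with Brg1 siRNA, and 12 and 15 with control siRNA. On that scale 2219 of all genes were higher and 7328 lower with Brg1 siRNA, against 4275 and 4511 on the deposited scale, and 2434 and 6850 with control siRNA, against 4341 and 4464.

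Ppp1r15a had the largest LPS response of all members in both arms, with 18152, 18265 and 17572 normalized counts in LPS and 358, 381 and 362 in vehicle with Brg1 siRNA (5.61 ± 0.071, limma adjusted p = 4.68e-21). With control siRNA it had 6472, 6528 and 6711 in LPS and 265, 252 and 295 in vehicle (4.60 ± 0.071, adjusted p = 8.07e-20). Phgdh followed, rising by 1.79 ± 0.24 with Brg1 siRNA and 2.75 ± 0.24 with control siRNA (adjusted p = 2.22e-06 and 7.23e-09). Mthfd2, Psat1 and Herpud1 completed the 5 largest rises with Brg1 siRNA, at 1.77, 1.60 and 1.54 in LPS over vehicle. With control siRNA the next were Slc7a5 (2.17), Ddit4 (2.08) and Pdia6 (1.83), of which Pdia6 was not called with library totals (0.0669). No rise named here changed sign under library totals.

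Trib3 had the largest fall with LPS, at -1.52 ± 0.49 with Brg1 siRNA and -1.55 ± 0.49 with control siRNA (limma adjusted p = 0.0101 and 0.00877). Its call was lost without Brg1 siRNA LPS replicate 2 (0.0691) or without the MUC18 libraries (0.0544) in the first arm and without control siRNA LPS replicate 3 (0.0512) in the second. Atf6 had 1353, 1393 and 1412 normalized counts in LPS and 3219, 3138 and 3155 in vehicle with Brg1 siRNA, with no overlap (-1.19 ± 0.087, adjusted p = 6.14e-10). With control siRNA its fall was similar in size (-1.10 ± 0.087, adjusted p = 2.15e-09). Sesn2 fell by 1.12 with Brg1 siRNA and 0.87 with control siRNA, Pdia4 by 0.95 and 0.96, and Ddit3 by 0.65 and 0.92. Shmt2 was called lower with Brg1 siRNA (-0.65 ± 0.25, adjusted p = 0.0284), a call lost without replicate 2 or 3 of either Brg1 siRNA group (0.065 to 0.0909) and without the MUC18 libraries (0.0868).

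Both amino acid transporter genes rose with LPS in both arms, while of the 3 sensor and Xbp1 genes 2 fell and none rose in either. The rise of Slc7a5 with Brg1 siRNA was lost with library totals (0.842), with only the compared groups (0.0629), without Brg1 siRNA vehicle replicate 2 (0.0973) and without Brg1 siRNA LPS replicate 1 (0.0742). The regulators, enzymes, folding and degradation genes each held rises and falls. Hspa5 rose by 1.13 ± 0.058 with Brg1 siRNA and 0.93 ± 0.058 with control siRNA, and Atf4 by 1.09 ± 0.084 and 0.89 ± 0.084 (limma adjusted p = 3.41e-12, 6.25e-11, 1.61e-09 and 2.52e-08). Of the 13 folding genes, 7 rose and 2 fell with Brg1 siRNA, against 35.4% and 37.4% of all genes tested. With control siRNA 6 rose and 2 fell, against 36% and 37%. However, Hsp90b1, Calr, Creld2 and Hyou1 changed sign with library totals in both arms, as did Pdia3 and Dnajc3. Ern1 fell by 0.27 with Brg1 siRNA and 0.31 with control siRNA. The first call was lost without Brg1 siRNA LPS replicate 2 or 3 or vehicle replicate 1 (0.0621, 0.0541 and 0.0995) and the second without control siRNA LPS replicate 3 (0.0537). Both were lost without the MUC18 libraries (0.0609 with Brg1 siRNA and 0.0552 with control siRNA). Xbp1 was not called in either arm, but with library totals it was called lower in both (3.81e-06 with Brg1 siRNA and 1.16e-06 with control siRNA), and with a term for the number series higher with Brg1 siRNA (0.0454).

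Adding Dex to LPS changed fewer members. With Brg1 siRNA 10 rose and 5 fell, against 21.3% and 23% of all genes tested, and with control siRNA 12 rose and 7 fell, against 23.4% and 25.2% of all genes. The members' median log2 fold change was 0.03 with Brg1 siRNA and 0.16 with control siRNA, with -0.02 and -0.01 over all genes. Library totals moved the median of all genes to 0.31 with Brg1 siRNA and 0.28 with control siRNA, and then 23 members were called higher and 2 lower with Brg1 siRNA, and 21 and 3 with control siRNA. On that scale 5388 of all genes were higher and 1232 lower with Brg1 siRNA, against 2575 and 2777 on the deposited scale, and 5269 and 1647 with control siRNA, against 2827 and 3041. The LPS and Dex responses of an arm share its LPS libraries, so the pair is not independent.

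Phgdh rose most with Dex, with 347, 305, 502 and 470.0 normalized counts in Dex+LPS and 121, 129.6 and 93.2 in LPS with Brg1 siRNA (1.80 ± 0.22, limma adjusted p = 2.9e-06). With control siRNA it had 570.0, 644, 549 and 570.0 in Dex+LPS and 224, 175 and 171 in LPS (1.62 ± 0.22, adjusted p = 8.42e-06). Neither arm overlapped between treatments. Ern1 rose by 0.75 ± 0.10 with Brg1 siRNA and 0.54 ± 0.10 with control siRNA (adjusted p = 5.63e-06 and 0.000188). Pdia4 rose by 0.58 and 0.66, the BiP cofactor gene Dnajb9 by 0.56 and 0.76, and Herpud1 by 0.45 and 0.81, with Brg1 siRNA given before control siRNA each time. Sdf2l1 rose by 0.66 with control siRNA and was not called with Brg1 siRNA (0.37), a difference that was not called as an interaction (-0.30 ± 0.23, adjusted p = 0.59). The response with Brg1 siRNA was called higher in 5 of 18 alternatives (adjusted p = 0.00162 to 0.0394).

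Ppp1r15a fell with Dex by 1.03 ± 0.066 with Brg1 siRNA and 0.67 ± 0.066 with control siRNA (limma adjusted p = 5.6e-10 and 1.5e-07). Slc3a2 fell by 0.81 and 0.54, and Sel1l by 0.49 and 0.46, the Sel1l calls being lost with library totals (0.228 and 0.219). Slc7a5 had 50.7, 47, 78.3 and 68.1 normalized counts in Dex+LPS and 166, 146 and 162 in LPS with control siRNA, with no overlap (-1.38 ± 0.23, adjusted p = 7.07e-05). With Brg1 siRNA it was not called (-0.29 ± 0.23, adjusted p = 0.32). Ddit3 fell with Brg1 siRNA (-0.44 ± 0.095, adjusted p = 0.000961), a call lost with library totals (0.375). Hspa5 fell slightly with Brg1 siRNA (-0.19 ± 0.054, adjusted p = 0.00779) and had the opposite sign with library totals. Pdia6 was called lower with control siRNA (-1.51 ± 0.55, adjusted p = 0.0308), but not with edgeR (0.0639), with DESeq2 (0.0546), with library totals (0.0733), or without control siRNA Dex+LPS replicate 1, 2 or 3 or any control LPS library (0.0539 to 0.0912).

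**Figure D5:**
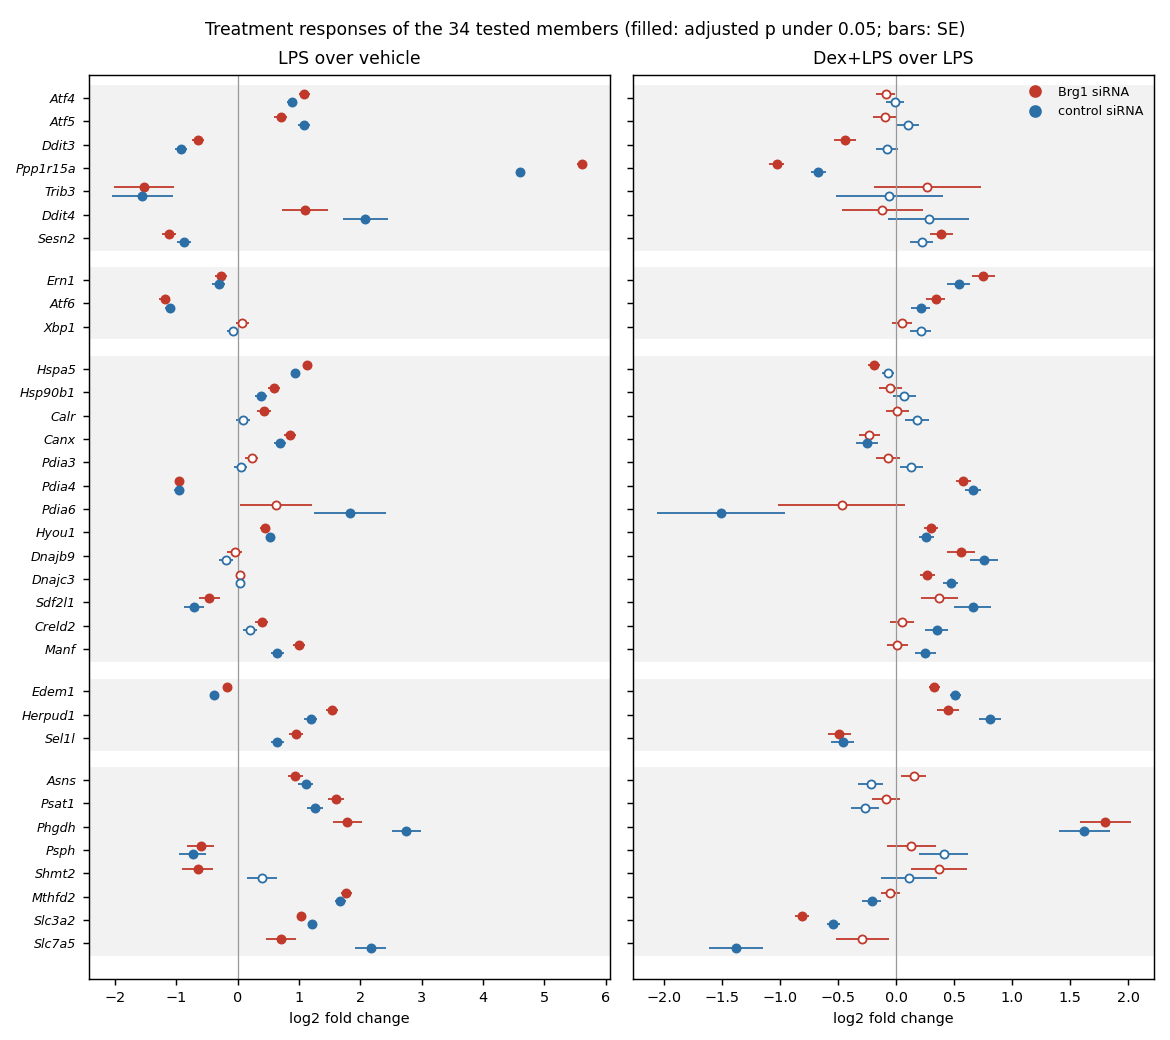
Log2 fold changes (x axes) of the 34 tested members (rows) for LPS over vehicle and for Dex+LPS over LPS, with Brg1 siRNA (red) drawn above control siRNA (blue); bars are standard errors and filled points passed limma at an adjusted p under 0.05. Ppp1r15a stands at 5.61 with Brg1 siRNA and 4.60 with control siRNA for LPS, and Slc7a5 at 0.71 and 2.17.

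Whether the treatment responses differed between arms was tested directly as an interaction. For LPS, 1 member was higher and 1 lower, against 6.39% and 5.05% of all genes tested, and for Dex none was higher and 1 was lower, against 2.75% and 1.22%. For LPS all genes split into 567 higher and 921 lower with library totals, against 771 and 609. The median over members was 0.14 for LPS and -0.12 for Dex, and 0.02 and 0.01 over all genes. Ppp1r15a gained more from LPS with Brg1 siRNA than with control siRNA, with an interaction of 1.01 ± 0.10 on the log2 scale (limma adjusted p = 2.3e-06). Slc7a5 gained less, with an interaction of -1.45 ± 0.35 (adjusted p = 0.00965), lost without the MUC18 libraries (0.0621).

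For Dex, Ppp1r15a fell more with Brg1 siRNA, with an interaction of -0.37 ± 0.093 (limma adjusted p = 0.0332). This call was lost without any 1 of the 6 LPS libraries (0.0528 to 0.0821), without Brg1 siRNA Dex+LPS replicate 1 (0.0681) or 2 (0.0544), without the MUC18 libraries (0.111), with library totals (0.0655) and with only the compared groups (0.0561). Phgdh, whose LPS response was 1.79 with Brg1 siRNA and 2.75 with control siRNA, had an interaction of -0.96 ± 0.34 that was not called (adjusted p = 0.0754), except without Brg1 siRNA vehicle replicate 1 (0.0423) or control siRNA vehicle replicate 2 (0.0133). Slc7a5 under Dex had an interaction of 1.09 ± 0.32 (adjusted p = 0.0731), called with DESeq2 (0.0487), with a pseudocount of 5 (0.045) and without control siRNA Dex+LPS replicate 3 (0.0453).

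Neighbouring genes of the same pathways were counted in 3 lists that share no gene with the members. Of 26 tested genes of the ATF4 and integrated stress response, 1 rose and 5 fell with Brg1 siRNA in vehicle, 5 rose and 11 fell in LPS, and 6 rose and 7 fell in Dex+LPS. These are 3.85% and 19.2% in vehicle, against 9.39% and 10.8% of all genes tested, 19.2% and 42.3% in LPS, against 17.3% and 15.8%, and 23.1% and 26.9% in Dex+LPS, against 19% and 15.3%. Their median log2 fold change was -0.04 in vehicle, -0.27 in LPS and 0.03 in Dex+LPS. Of the 3 largest called changes of each list in each direction, those whose call held under every alternative run are named here. The stress-induced regulator Nupr1 rose in LPS to 2917 ± 267 normalized counts with Brg1 siRNA, against 1619.7 ± 70.3 with control siRNA (SD; 0.85 ± 0.14 SE, adjusted p = 0.000176) and the amino acid transporter Slc38a2 to 3499 ± 205 normalized counts with Brg1 siRNA, against 2197 ± 99 with control siRNA (SD; 0.67 ± 0.07 SE, adjusted p = 7.5e-07). The glutamine transporter Slc1a5 fell in vehicle to 280.2 ± 21.1 normalized counts with Brg1 siRNA, against 473 ± 50.5 with control siRNA (SD; -0.75 ± 0.11 SE, adjusted p = 7.18e-05). Jdp2, a repressor of the AP-1 family, fell in LPS to 614 ± 69.9 normalized counts with Brg1 siRNA, against 1438 ± 88.7 with control siRNA (SD; -1.23 ± 0.15 SE, adjusted p = 7.37e-06). Aldh18a1, an enzyme of proline synthesis, fell in LPS to 35.5 ± 4.06 normalized counts with Brg1 siRNA, against 82.5 ± 20.7 with control siRNA (SD; -1.17 ± 0.21 SE, adjusted p = 0.000262). In Dex+LPS the stress cytokine Gdf15 rose by 1.31, Nupr1 by 0.97 and the eIF2alpha kinase gene Eif2ak2 by 0.61, while the glycine transporter Slc6a9 fell by 1.74, Slc1a5 by 1.01 and the folate enzyme gene Mthfd1l by 0.77.

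Cytosolic aminoacyl-tRNA synthetases, only some of which are known ATF4 targets, were counted next. Of 20 tested, 1 rose and 3 fell in vehicle, 1 rose and 11 fell in LPS, and none rose and 8 fell in Dex+LPS, with medians of -0.08, -0.33 and -0.15. The shares called higher and lower were 5% and 15% in vehicle, 5% and 55% in LPS, and 0% and 40% in Dex+LPS, beside the same shares of all genes. The serine enzyme gene Sars rose in vehicle to 1292 ± 19 normalized counts with Brg1 siRNA, against 1018 ± 32 with control siRNA (SD; 0.34 ± 0.08 SE, adjusted p = 0.00501), and Hars, of the histidine enzyme, fell there by 0.38. The isoleucine enzyme gene Iars fell in LPS to 859.7 ± 79.3 normalized counts with Brg1 siRNA, against 1474 ± 5.65 with control siRNA (SD; -0.78 ± 0.07 SE, adjusted p = 3.18e-07). Farsa and Farsb, the subunits of the phenylalanine enzyme, fell in LPS by 0.62 and 0.57. In Dex+LPS Farsa, Iars and Hars fell by 0.49, 0.49 and 0.46.

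Of 50 further tested genes of ER folding, export and degradation, 3 rose and 6 fell in vehicle, 6 rose and 8 fell in LPS, and 6 rose and 14 fell in Dex+LPS. The shares were 6% and 12% in vehicle, 12% and 16% in LPS, and 12% and 28% in Dex+LPS, so that those in vehicle and the falls in LPS lay near the shares of all genes. Their median was -0.05 in vehicle, -0.04 in LPS and -0.09 in Dex+LPS. Derl1, a channel component that returns misfolded proteins to the cytosol, fell in vehicle to 706 ± 19.8 normalized counts with Brg1 siRNA, against 1590.3 ± 71.1 with control siRNA (SD; -1.17 ± 0.06 SE, adjusted p = 5.44e-10). It fell by 0.90 in LPS and 0.97 in Dex+LPS. Tmbim6, an ER membrane protein that dampens IRE1 signalling, rose by 0.62, 0.48 and 0.57 in the 3 treatments. Sec24d, a coat protein of ER export vesicles, fell by 0.46 in LPS and 0.48 in Dex+LPS. In vehicle Srprb, a subunit of the receptor that brings ribosomes to the ER, rose by 0.58, and the BiP cofactor gene Dnajb11 fell by 0.27. In Dex+LPS the gene of the membrane-bound transcription factor Creb3 rose by 0.41 and that of the ubiquitin-conjugating enzyme Ube2j1 by 0.39, while Creb3l2, a relative of Creb3, fell by 0.63.

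In the authors' deposited table, at the same adjusted p threshold, 6 members were higher and 9 lower with Brg1 siRNA in vehicle, 7 and 7 in LPS, and 9 and 15 in Dex+LPS. The shares of all genes by the authors' calls were not counted. All 14, 14 and 22 members called by limma were among those of the authors' deposited table.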

How the data were processed

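RNA of 20 samples was sequenced in 6 groups. The authors deposited 1 table with 17787 gene rows and a normalized signal column for each sample (DESeq normalization, per the file headers), together with their own log2 fold changes, p-values and adjusted p-values. R 4.1.0, DESeq2, DESeq and Salmon 1.4.0 are listed, with builds GRCm38.p6 and mm10, per the submitters' processing notes. The labels' protocols name a stranded mRNA kit and also depletion of ribosomal RNA, and which RNA was selected is not given. Which strand was counted is not given in the sources used here. Of the deposited signal values above 0, 99.95% were whole reads within 0.01 after division by the smallest step of the library, so depth could be summed.

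The normalized counts plus 1 were taken to log2 and tested with limma-trend (R 4.3.3, limma 3.58.1) over the 12061 genes that reached 10 in 3 or more samples, with all 6 groups in a single fit, two-sided, and Benjamini-Hochberg adjustment over all genes of a comparison. The 9 comparisons were the knockdown in each treatment, the LPS and Dex responses of each arm, and the 2 interactions. Alternatives were library totals, TMM factors, pseudocounts of 0.5 and 5, no filter, edgeR 4.0.16 and DESeq2 1.42.0 on the recovered reads, only the compared groups, a replicate block, a term for the description number series, and leaving out those 4 libraries or each library in turn. The limma step was tested on simulated data. Members, lists and motifs were chosen with earlier results of these data known. Values in every sample were given for Atf4, Ddit3, Xbp1, Ern1, Atf6 and Hspa5, for up to 6 called members in each direction per knockdown comparison and up to 4 per interaction. For treatment responses up to 5 called members in each direction were named, and for other lists up to 3. Promoters and coordinates come from RefSeq (GRCm38.p6) and GENCODE M21 (GRCm38). Promoter entries were matched by symbol for 31 of the 35 members.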

Additional observations from a re-analysis of the deposited data

Results flagged for a closer look

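In the Dex+LPS groups of 4 samples, a single library stood apart from the other three for 5 of the 70 gene and group sets examined, where chance alone flags about 1 in 20. Shmt2 had 152 normalized counts in a control siRNA library, Sel1l 3045 in a control siRNA library, Pdia6 278 in a control siRNA library, Manf 2043 in a control siRNA library and Ern1 1036 in a Brg1 siRNA library. Without that library the knockdown call of Manf in Dex+LPS held, while its Dex response with control siRNA, of 0.25, was no longer called (limma adjusted p = 0.0706), nor was it without 1 of the control siRNA LPS libraries (0.163) or with only the compared groups (0.141). Whether a library differed in handling was not tested.

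The LPS response differed between the siRNA arms for 2 members by the interaction test of limma. Slc7a5 gained less with Brg1 siRNA, by -1.45 on the log2 scale, and Ppp1r15a gained more, by 1.01. The Dex response of Ppp1r15a also differed, by -0.37, a call that many alternatives lost.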

How the results depend on the processing

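Counts of called members in the 3 knockdown comparisons, the 2 LPS responses and the Dex response with control siRNA stayed within 1.5 times the values given under every alternative run. With the replicate block 16 members were called for the knockdown in vehicle, 15 in LPS and 24 in Dex+LPS, against 14, 14 and 22 without it. Of all 12061 genes, 1235 were then higher and 1411 lower in vehicle, against 1132 and 1298 without it. In LPS 2204 and 2018 were, against 2089 and 1906, and in Dex+LPS 2396 and 1951, against 2289 and 1842. Replicate numbers share no stated source, correlations of same-numbered deviations ran from -0.17 to 0.41, and most samples did not correlate best with their own number. The 0.41 was of Dex+LPS replicate 4, a MUC18 library in both arms. In LPS the MUC18 library of Brg1 siRNA, replicate 2, correlated best with that of control siRNA, replicate 3. With a term for the number series 16 members were called for the knockdown in vehicle, 16 in LPS and 26 in Dex+LPS. Of all genes, 1383 were then higher and 1597 lower in vehicle, 2373 and 2216 in LPS, and 2578 and 2143 in Dex+LPS. With library totals the Dex response with Brg1 siRNA gave 25 called members, against 15. The LPS interaction, with 2 called members, gave 5 with library totals, 6 with only the compared groups, 1 without the MUC18 libraries, and 2 to 5 when single libraries were left out. The Dex interaction, with 1, gave 0 with library totals, 2 with a pseudocount of 5, 3 with DESeq2, 0 with only the compared groups, 0 without the MUC18 libraries, and 0 to 3 when single libraries were left out. The cause of these shifts was not tested.

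Library totals turned the sign of 44 of 306 log2 fold changes of members, 23 of them called in 1 of the fits or both. In the LPS response with Brg1 siRNA they became Xbp1 -0.60, Hsp90b1 -0.09, Calr -0.25, Pdia3 -0.45, Dnajc3 -0.64, Creld2 -0.29 and Hyou1 -0.24. In the LPS response with control siRNA they became Hsp90b1 -0.20, Calr -0.49, Pdia3 -0.54, Dnajc3 -0.54, Creld2 -0.38 and Hyou1 -0.05. In the Dex response with Brg1 siRNA they became Atf4 0.24, Atf5 0.23, Mthfd2 0.28, Hspa5 0.14, Hsp90b1 0.28 and Pdia3 0.27. In the Dex response with control siRNA they became Atf4 0.29, Mthfd2 0.09, Hspa5 0.23 and Canx 0.05. The deposited scale and library totals differ because the size factors of the LPS libraries are small for their depth; which scale is nearer to RNA per cell was not tested. Depth limits Chac1, Trib3 and Ddit4, whose counts stayed under 50 normalized counts in every library.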
